A study of Mus musculus with 20 samples.

Results

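The genes described here encode 5 ion channels that work below the threshold of the action potential, 3 of the HCN family (Hcn2, Hcn3 and Hcn4) and 2 of the KCNQ family (Kcnq3 and Kcnq5). They were found by matching these symbols to the Ensembl identifiers of the expression table, which gave 5 of the 37620 genes listed, or 5 of the 29049 with a value in any library. The tissue was whole dorsal root ganglion (DRG), the sensory ganglion beside the spinal cord, from C57Bl6 mouse embryos at E18.5, shortly before birth, and the labels give no transgene, mutation or treatment for any group. Each of 10 embryos (donors) gave 1 library from lumbar ganglia (L4-5) and 1 from the ganglia at L6-S1, called sacral. The 20 libraries form 4 groups of 5, male and female at each level. The study compared the 2 levels because sacral DRG hold the sensory neurons of the pelvic organs, and asked at this age whether level differences are present before birth and differ between the sexes. Expression is given as log2 RPKM, the log2 of reads per kilobase of exon, scaled by the authors between libraries, so that a difference of 1 is a doubling. In the deposited table every library has the same median, 0.93 log2 RPKM over the genes with a value, so a level does not follow from reads and depth alone.

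HCN channels open when the membrane is hyperpolarised and pass an inward cation current, Ih, which pulls the membrane back towards firing. Cyclic AMP binds a site in the tail of the channel and, in HCN2 and HCN4, makes opening markedly easier, whereas HCN3 responds little to it. KCNQ channels open slowly at voltages just below the firing threshold and pass the outward M-current, which holds the membrane back. Receptors that couple through Gq to phospholipase C close them by using up the membrane lipid PIP2. In sensory neurons both currents set how readily the cell fires and how far it follows repeated input.

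The channels of both families share a selectivity filter with the amino acids glycine, tyrosine and glycine, the loop that lines the narrowest part of the pore. The stretch of coding sequence around it is printed for Hcn3, Hcn4 and Kcnq3, the 3 genes with the highest mean levels of the 5, to show what the families have in common and where they part, with the 3 filter codons in capitals. Each run of 30 bases lies in coding exon sequence of the mouse genome build mm9, is read 5′ to 3′ on the strand of the gene and was taken from the GENCODE M1 transcripts.
Hcn3 (chr3:88954919-88954948, minus strand): atgctatgcattGGCTATGGGcagcaggca
Hcn4 (chr9:58703386-58703415, plus strand): atgctgtgcattGGGTATGGAcggcaggca
Kcnq3 (chr15:65855284-65855313, minus strand): ctggccaccattGGTTATGGAgacaagaca

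Within this window Hcn3 and Hcn4 matched at 26 of 30 bases, whereas each of them matched Kcnq3 at 18. Within the 9 bases of the filter codons alone, the pairs matched at 7 or 8, and the encoded amino acids are the same in these 3 genes.

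The 5 genes lie on separate chromosomes. In mm9 Hcn2 (ENSMUSG00000020331) spans chr10:79179379-79198853 and Hcn4 (ENSMUSG00000032338) spans chr9:58671319-58708762, both on the plus strand and with no overlapping gene. Hcn3 (ENSMUSG00000028051) spans chr3:88949996-88964118 on the minus strand and overlaps Pklr, the liver and red cell pyruvate kinase, on the opposite strand. Kcnq3 (ENSMUSG00000056258) spans chr15:65826733-66117786 on the minus strand. Its 2622 annotated exon bases hold only 3 outside the coding sequence, so reads from its untranslated regions were not part of its value. Kcnq5 (ENSMUSG00000028033) spans chr1:21388484-21952023 on the minus strand, has 7716 exon bases of which 62.6% are noncoding, and overlaps the predicted genes Gm7658 on the same strand and Gm16705 on the opposite strand. The strand setting of the counting is not given in the sources used here, so reads of overlapping genes on opposite strands may not have been kept apart for Hcn3 and Kcnq5.

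The depth recovered from the values ran from 19606261 to 39678956 reads per library. The mitochondrial ribosomal RNA (mt rRNA) genes took between 17.8% and 61.1% of these reads, a spread that runs across all groups and is taken up again beside the results it touches. Sacral female F7 was the shallowest library. As a check of the tissue label, all 10 pan-neuronal markers passed the filter of 1 RPKM, as did Th of the autonomic list, a gene that some sensory neurons also express, and Pax6 of the spinal cord list, with means of 2.29 and 0.0058 log2 RPKM over the 20 libraries. The other autonomic markers with a value had means from -6.98 for Chat to -4.05 for Dbh of noradrenergic neurons. Those of the other spinal cord markers ran from -6.92 for Mnx1 to -2.72 for Slc6a5, with Olig2 at -5.53. Skeletal muscle transcripts were present, and 7 of 9 muscle markers passed the filter, with means up to 4.58 for Acta1. The summed level of the 9 ran from 21.59 RPKM in a lumbar male to 442.8 RPKM in a lumbar female library.

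Hcn3 was the most highly expressed of the 5 genes at both levels and Hcn2 the least. Hcn3 averaged 7.92 ± 2.66 RPKM (SD, n = 10) in lumbar and 6.55 ± 2.49 in sacral ganglia. Kcnq3 followed with 3.66 ± 1.04 and 3.08 ± 1.05 RPKM. Hcn4 stood at 3.30 ± 1.36 and 2.87 ± 1.34 RPKM, and Kcnq5 at 2.23 ± 0.61 and 2.46 ± 0.56. Hcn2 reached 0.46 ± 0.23 and 0.33 ± 0.19 RPKM, which rests on 6 to 92 reads per library. Of the 3 HCN genes, the one known for little response to cyclic AMP thus had the most reads per length.

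The order was tested on the log2 RPKM scale with an exact two-sided sign-flip permutation test within libraries, adjusted over the 8 neighbouring pairs of both levels. In lumbar ganglia Hcn3 exceeded Kcnq3 by 1.09 ± 0.27 (SD, n = 10) in 10 of 10 libraries (exact permutation test, adjusted p = 0.0039). Kcnq3 and Hcn4 were neighbours whose difference of 0.22 ± 0.37 did not pass (exact permutation test, adjusted p = 0.15). Hcn4 exceeded Kcnq5 by 0.49 ± 0.33 in 9 of 10 lumbar libraries (exact permutation test, adjusted p = 0.0063), and Kcnq5 exceeded Hcn2 by 2.34 ± 0.43 in all 10 (exact permutation test, adjusted p = 0.0039). In sacral ganglia the top and the bottom of the order were as clear, with Hcn3 above Kcnq3 by 1.10 ± 0.32 and Kcnq5 above Hcn2 by 3.12 ± 0.92, each in 10 of 10 libraries (exact permutation test, adjusted p = 0.0039 for both). The 3 genes in the middle could not be ordered there. Kcnq3 and Hcn4 differed by 0.17 ± 0.38 (exact permutation test, adjusted p = 0.20), and Hcn4 and Kcnq5 by 0.08 ± 0.68 (exact permutation test, adjusted p = 0.76). These levels are per annotated exon length, and the absent untranslated regions of Kcnq3 limit its place in the order. The noncoding share of exon bases also differed between the others, at 5.13% in Hcn4, 19.0% in Hcn2, 43.7% in Hcn3 and 62.6% in Kcnq5. The part of these shares in the order was not tested.

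**Figure D1:**
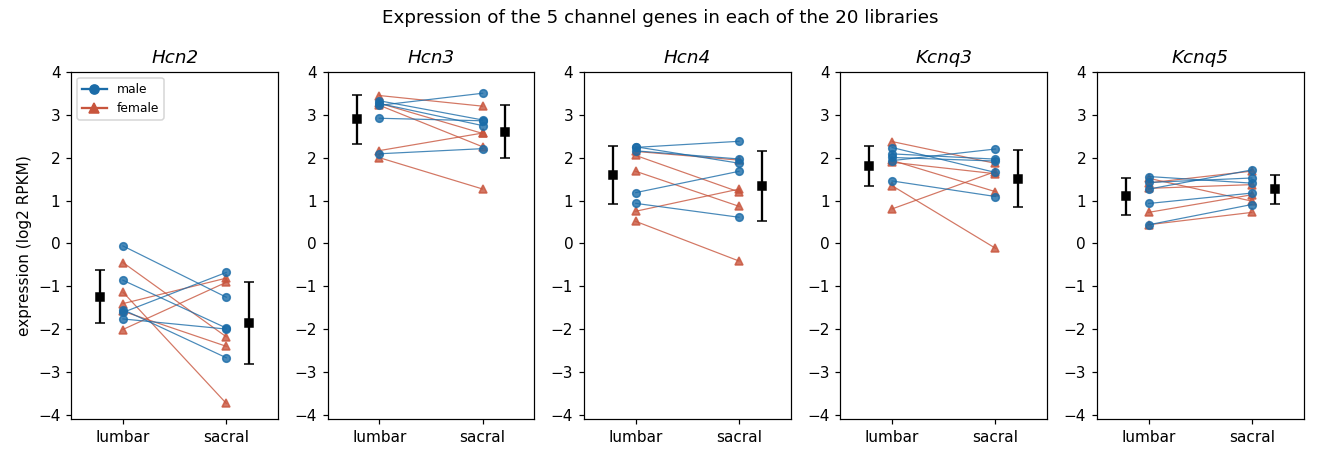
Expression of Hcn2, Hcn3, Hcn4, Kcnq3 and Kcnq5 in log2 RPKM (vertical axes, same scale) in lumbar and sacral ganglia. Each line joins the 2 libraries of 1 donor (blue circles male, red triangles female), and black squares with bars are the mean ± SD over 10 libraries. Hcn3 lies highest and Hcn2 lowest at both levels, and the lumbar and sacral values of every gene overlap.

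Between sacral and lumbar ganglia, none of the 5 genes passed the test for a difference in level. Hcn3, Hcn4 and Kcnq3 had lower and Kcnq5 higher means in sacral ganglia. These 4 were tested with limma among 14529 genes, with donor as a block and adjustment over all genes, and 0 of them were called (0 also at an unadjusted p under 0.05, and 0 with the voom transformation). The background is that 978 genes, or 6.73%, were called, 392 of them higher and 586 lower in sacral ganglia. Voom was run on recovered reads scaled by library totals, not with the authors' scaling. Of 727 genes called with it 557 were higher, and of 765 called after scaling without mt rRNA 449 were higher. The median difference of the 4 genes was -0.27 on the log2 scale against -0.05 over all genes tested, where the median standard error was 0.13. In bulk tissue, fewer cells of a type and less RNA per cell cannot be told apart.

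In 7 of 10 donors Hcn3 was lower in the sacral than in the lumbar library. Its lumbar male values were 2.92, 3.33, 2.09, 3.22 and 3.26 log2 RPKM in donors M1, M3, M5, M7 and M8. The lumbar female values were 3.45, 2.0, 2.16, 3.27 and 3.22 in donors F3, F7, F8, F9 and F10. Lumbar M5, F7 and F8 thus stood apart below the other 7, and these 3 libraries had mt rRNA shares of 61.1%, 48.8% and 43.2%, against at most 30.4% in the others. In the same order of donors, the sacral male values were 2.86, 2.88, 2.21, 3.50 and 2.75 and the sacral female values were 3.20, 1.27, 2.57, 2.56 and 2.25. Sacral F7 was the lowest of all 20, and the levels overlapped. The difference was -0.29 ± 0.19 (SE; 95% interval -0.67 to 0.10; limma, adjusted p = 0.35). This interval covers folds from 0.627 to 1.07. When limma weighted the libraries by how closely their own values followed the group means, the estimate became -0.44 ± 0.13 (limma, adjusted p = 0.018). This was the 1 alternative of 21 under which Hcn3 passed. Under these weights 3460 of the 14529 genes tested were called, against 978 without them.

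Hcn4 likewise had its lower value at the sacral level in 7 of 10 donors. Lumbar values were 1.19, 2.16, 0.94, 2.24 and 2.25 log2 RPKM in males and 2.15, 0.52, 0.75, 2.05 and 1.68 in females. The low lumbar libraries were those of M5, F7 and F8, as for Hcn3, with M1 next. Sacral values were 1.68, 1.97, 0.61, 2.38 and 1.87 in males and 1.94, -0.41, 1.27, 1.20 and 0.87 in females. Sacral F7 held the lowest value of all 20. The level difference was -0.25 ± 0.22 (SE; 95% interval -0.72 to 0.21; limma, adjusted p = 0.50), which covers folds from 0.607 to 1.16.

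Hcn2 lay below the filter of 1 RPKM in every group and was tested by itself. Its lumbar reads numbered 27, 92, 18, 30 and 60 in males and 40, 26, 33, 82 and 41 in females. The sacral reads numbered 25, 44, 10, 55 and 23 in males and 71, 14, 45, 18 and 6 in females. The ranges overlapped, and in log2 RPKM the sacral value was lower in 7 of 10 donors. The mean difference was -0.62 ± 1.20 (SD, n = 10; 95% interval -1.51 to 0.25; exact two-sided sign-flip permutation test, p = 0.14). The smallest p this test can give with 10 donors is 0.0020. The spread between donors was thus larger than the mean difference.

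Kcnq3, whose protein assembles with other KCNQ subunits into the channels of the M-current, had the lower value in the sacral library for 8 of 10 donors. Lumbar values were 1.93, 2.09, 1.46, 2.0 and 2.24 log2 RPKM in males and 2.38, 1.35, 0.81, 1.93 and 1.89 in females. Sacral values were 2.20, 1.97, 1.10, 1.92 and 1.66 in males and 1.87, -0.11, 1.68, 1.21 and 1.63 in females. The exceptions were M1 and F8, and the sacral F7 library stood apart at 56 reads. The level difference was -0.30 ± 0.19 (SE; 95% interval -0.69 to 0.10; limma, adjusted p = 0.34), or folds from 0.62 to 1.07.

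Kcnq5, a further KCNQ subunit that can form M-channels, had the opposite sign. Lumbar values were 0.93, 1.42, 0.44, 1.27 and 1.56 log2 RPKM in males and 1.41, 0.73, 0.44, 1.52 and 1.29 in females. Sacral values were 1.17, 1.53, 0.91, 1.71 and 1.41 in males and 1.69, 1.14, 0.72, 0.99 and 1.37 in females. The sacral library was the higher in 8 of 10 donors, all but M8 and F9, although the levels overlapped. The difference of 0.16 ± 0.14 (SE; 95% interval -0.12 to 0.45) was smaller than the other 4 in size and did not pass (limma, adjusted p = 0.47). The interval covers folds from 0.921 to 1.36.

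**Figure D2:**
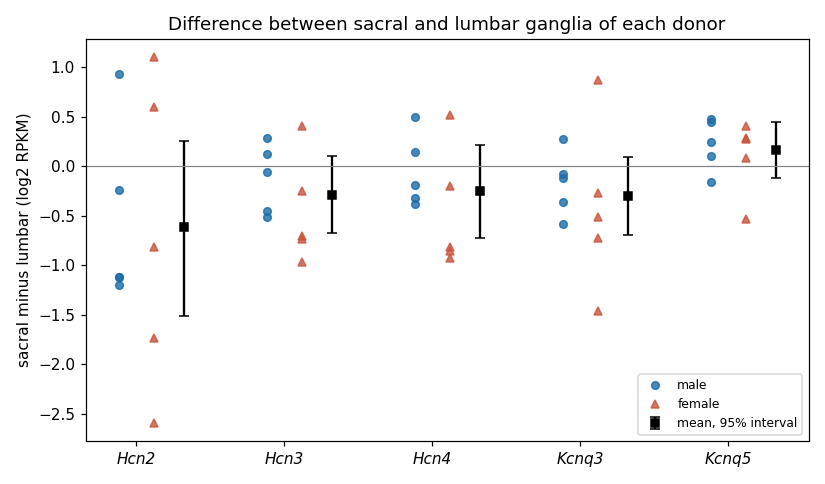
Sacral minus lumbar expression of each gene in log2 RPKM (vertical axis), 1 point per donor (blue circles male, red triangles female). Black squares are the mean with its 95% interval, from limma for Hcn3, Hcn4, Kcnq3 and Kcnq5 and from the exact sign-flip test for Hcn2. All 5 intervals include 0.

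Ratios within a library do not depend on how libraries were scaled, and 4 were tested between members of a family with the exact two-sided sign-flip permutation test. The log2 ratio of Kcnq3 to Kcnq5 was 0.71 ± 0.23 (SD, n = 10) in lumbar and 0.25 ± 0.61 in sacral ganglia. In RPKM, Kcnq3 was thus 1.63 times Kcnq5 in lumbar and 1.19 times in sacral ganglia. In 8 of 10 donors, 4 male and 4 female, the sacral ratio was the lower. Its values in lumbar libraries were 1.0, 0.67, 1.02, 0.74 and 0.68 in males and 0.96, 0.62, 0.37, 0.41 and 0.61 in females, so that Kcnq3 exceeded Kcnq5 in every lumbar library. The sacral values were 1.03, 0.44, 0.19, 0.21 and 0.25 in males and 0.18, -1.25, 0.95, 0.22 and 0.25 in females. Sacral M1 and F8 were near 1, 7 sacral libraries lay between 0.18 and 0.44, and sacral F7 was the only one of 20 libraries with more Kcnq5 than Kcnq3 per length.

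The change in the Kcnq3 to Kcnq5 ratio was -0.46 ± 0.64 (SD, n = 10; 95% interval -0.92 to -0.04; exact permutation test, p = 0.039). Adjusted over the 4 ratios it did not pass (exact permutation test, adjusted p = 0.16). Without donor F8, where the sacral ratio exceeded the lumbar one most, the change was -0.58 and passed (exact permutation test, adjusted p = 0.031). Without donor F7, whose sacral library had the fewest reads, it was -0.30 and did not pass (exact permutation test, adjusted p = 0.31). The change was -0.40 in males and -0.52 in females, and the difference between the sexes did not pass (exact permutation test, p = 0.80).

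The HCN ratios showed smaller or more scattered changes. Hcn3 to Hcn4 was 1.30 ± 0.24 in lumbar and 1.27 ± 0.26 in sacral ganglia, a change of -0.03 ± 0.28 (95% interval -0.23 to 0.16; exact permutation test, adjusted p = 0.72). On average Hcn3 was 2.46 times Hcn4 in lumbar and 2.41 times in sacral ganglia. In single libraries the log2 ratio ran from 0.98 to 1.73 in lumbar and from 0.88 to 1.68 in sacral ganglia. The ratio of Hcn2 to Hcn3 changed by -0.33 ± 0.86 and that of Hcn2 to Hcn4 by -0.36 ± 0.88 (exact permutation test, adjusted p = 0.33 for both). As a share of the summed RPKM of the 3 HCN genes, Hcn3 made up 66.8%, 66.6%, 69.4% and 69.6%, in the order lumbar and sacral male, then lumbar and sacral female. Hcn4 made up between 26.5% and 30.5% of the sum over the 4 groups, and Hcn2 between 2.90% and 4.13%. Of the summed RPKM of Kcnq3 and Kcnq5, Kcnq3 made up 63.8 ± 2.80% (SD, n = 5) in lumbar male and 57.2 ± 5.81% in sacral male ganglia. In females these shares were 60.1 ± 3.85% and 51.4 ± 13.3%. All these shares are within the genes named and not within the whole families. The 9 other genes with Hcn, Kcnq or Kcne symbols and a value had a summed level from 13.81 to 53.01 RPKM per library.

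**Figure D3:**
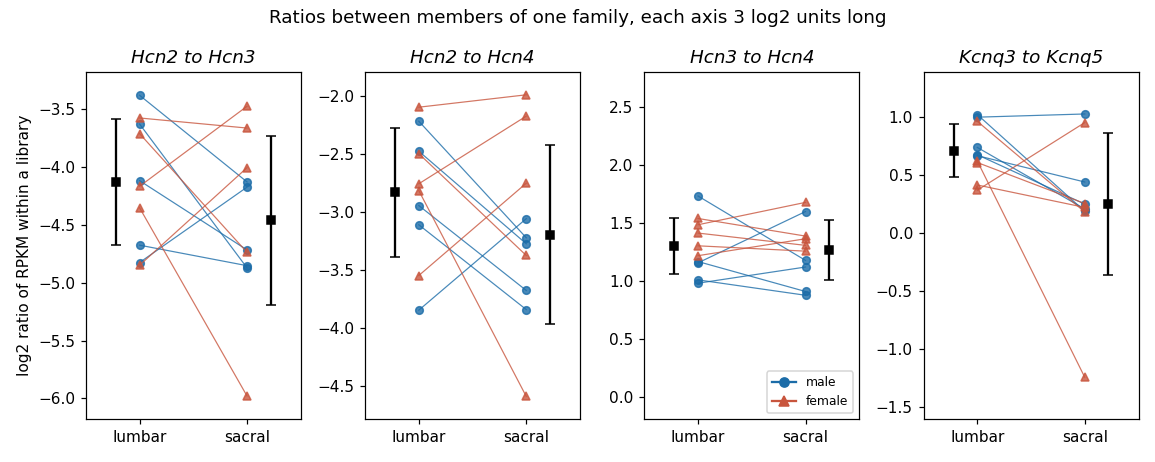
Log2 ratio of RPKM within a library (vertical axes, each 3 units long) for the 4 pairs of genes, in lumbar and sacral ganglia. Lines join the libraries of 1 donor (blue circles male, red triangles female), and black squares with bars are the mean ± SD over 10 libraries. Kcnq3 to Kcnq5 is lower at the sacral level in 8 of 10 donors, and Hcn3 to Hcn4 is the ratio with the narrowest spread at the sacral level.

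Within one sex, none of the 4 genes tested with limma passed either. In males the level differences were -0.12 ± 0.26 (SE) for Hcn3, -0.05 ± 0.32 for Hcn4, -0.18 ± 0.27 for Kcnq3 and 0.22 ± 0.19 for Kcnq5, with limma adjusted p-values from 0.71 to 0.97, where 67 genes or 0.461% were called. In females they were -0.45 ± 0.26, -0.46 ± 0.32, -0.42 ± 0.27 and 0.11 ± 0.19, with limma adjusted p-values from 0.37 to 0.78, where 128 genes or 0.881% were called. The difference between the sexes in these estimates was tested as the interaction of level and sex, which was -0.32 ± 0.37 for Hcn3, -0.40 ± 0.45 for Hcn4, -0.24 ± 0.38 for Kcnq3 and -0.12 ± 0.27 for Kcnq5 (limma, adjusted p = 0.995 for each) and did not pass. In that comparison limma called 0 of all genes, which is 0%, with 470 at an unadjusted p under 0.05, and with voom it also called 0, with 328 at that threshold. For Hcn2 the level difference averaged -0.55 in males and -0.69 in females (interaction -0.14, exact permutation test, p = 0.84).

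Females and males were also compared at each level. In lumbar ganglia the female minus male differences were -0.14 ± 0.32 (SE) for Hcn3, -0.33 ± 0.39 for Hcn4, -0.27 ± 0.33 for Kcnq3 and -0.05 ± 0.24 for Kcnq5, and none passed (limma, adjusted p from 0.89 to 0.98), where 48 genes or 0.33% were called. In sacral ganglia they were -0.47 ± 0.32, -0.73 ± 0.39, -0.51 ± 0.33 and -0.17 ± 0.24 (limma, adjusted p from 0.38 to 0.76), where 147 genes or 1.01% were called. All 8 estimates lay below 0 and none passed. Of all genes tested, 47.1% lay below 0 in lumbar and 53.9% in sacral ganglia. With the mt rRNA share as a covariate the sacral values were -0.32, -0.55, -0.39 and -0.06. Hcn2 differed by -0.15 in lumbar and -0.29 in sacral ganglia (exact permutation test, p = 0.72 and p = 0.68).

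Relatives of these channels and genes that act on them were counted from lists. Between the levels, 3501 of the 14529 genes tested, or 24.1%, had an unadjusted p under 0.05 by limma, which is the background for the counts at that threshold. The other genes with Hcn, Kcnq or Kcne symbols numbered 9 with a value, of which 5 were tested and 0 called by limma. All 5 had estimates below 0, from -0.63 to -0.14, and 1 had an unadjusted p under 0.05. Of the 5 proteins that bind HCN channels and alter their surface level or gating, 3 were tested and 0 called, with 2 at an unadjusted p under 0.05. These were Pex5l, a brain protein that controls trafficking of HCN channels (-0.41 ± 0.15 SE, lower in 9 of 10 donors, limma adjusted p = 0.096), and Flna, an actin-binding filamin (0.22 ± 0.09, higher in 9 of 10, limma adjusted p = 0.13). They are named after their values were seen.

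Of 9 adenylyl cyclases, the enzymes that make the cyclic AMP to which HCN2 and HCN4 respond, 8 were tested and 0 were called, with 0 at an unadjusted p under 0.05. Their median difference was -0.02 and 5 of 8 lay below 0. Of 15 regulators of the M-current, such as calmodulins, Gq-linked signalling genes and the ankyrin that anchors KCNQ channels, 12 were tested and 0 were called. Their median was -0.22, 11 of 12 lay below 0, and 5 had an unadjusted p under 0.05, all lower in sacral ganglia. Over all genes tested 58.0% lay below 0.

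Markers of several cell types of the ganglion were called between the levels. As background, 6.73% of all genes tested were called, 392 higher and 586 lower, and 58.0% of estimates lay below 0. The marker counts are given for limma on the deposited values only, not for the other scalings. Of the 10 pan-neuronal markers 3 were called lower in sacral ganglia (Snap25, Nefl and Nefm) and 0 higher, and 10 of 10 estimates lay below 0. Their summed level ranged from 1405 to 2953 RPKM in lumbar male, 1140 to 2038 in sacral male, 1450 to 3368 in lumbar female and 606.5 to 2211 in sacral female libraries, and 9 of 10 donors had the lower sum at the sacral level. Of 9 markers of large myelinated neurons 4 were lower and 1 higher, and of 9 of small nociceptive neurons 1 was lower and 1 higher. Of 9 glial markers 4 were lower and 0 higher. Of 6 fibroblast markers 3 were higher and 0 lower, and of 4 endothelial markers tested 2 were higher and 0 lower. No skeletal muscle marker of 7 tested was called, with 1 at an unadjusted p under 0.05 by limma. Of the autonomic and the spinal cord markers 1 each was tested, and neither was called or had an unadjusted p under 0.05 by limma. The part of these markers in the values of the 5 channel genes was not tested.

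The expression of all 5 genes was lower in libraries with a larger share of mt rRNA, at both levels. Over the 10 relations, adjusted together and each with n = 10 libraries, the permutation test of Pearson's r passed for 8. The share of all genes with such a relation was not tested, so it is not shown to be particular to these 5 genes. For Hcn3, r was -0.92 in lumbar (permutation test, adjusted p = 0.0060) and -0.75 in sacral ganglia (permutation test, adjusted p = 0.016), with Spearman's rho at -0.84 and -0.90. Hcn4 had r of -0.82 and -0.78, Kcnq3 of -0.76 and -0.73 and Kcnq5 of -0.91 and -0.69 (permutation test, adjusted p between 0.0054 and 0.036 for these 6). Their rho ran from -0.94 to -0.72 (permutation test, adjusted p between 0.0025 and 0.026). Hcn2 had r of -0.58 and -0.60 (permutation test, adjusted p = 0.075 and p = 0.071) and rho of -0.68 and -0.73 (permutation test, adjusted p = 0.034 and p = 0.026). When the 2 libraries with the most extreme shares relative to the median were left out (M5 and F7 in lumbar, F3 and M3 in sacral ganglia), r ran from -0.44 for Hcn2 in sacral to -0.92 for Kcnq5 in lumbar ganglia.

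The share itself overlapped between the levels, and its difference did not pass. In 3 of 10 donors the sacral share was the higher, and the mean difference was 0.62 ± 9.41 percentage points (SD, n = 10; exact sign-flip permutation test, p = 0.83). With the share as a covariate the level differences were -0.26 for Hcn3, -0.23 for Hcn4, -0.28 for Kcnq3 and 0.18 for Kcnq5 (limma, adjusted p between 0.21 and 0.43), all near those without it.

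**Figure D4:**
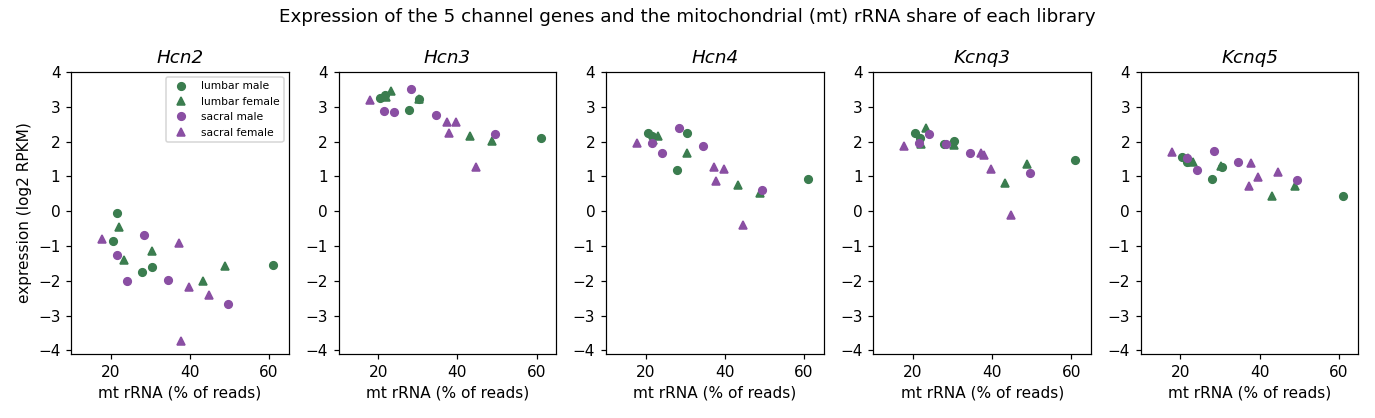
Expression of the 5 genes in log2 RPKM (vertical axes, same scale) against the mt rRNA share of the library in percent of reads (horizontal axes). Points are single libraries, green lumbar and purple sacral, circles male and triangles female. Each gene slopes downwards at both levels, and the shares run from 20.5% to 61.1% in lumbar and from 17.8% to 49.5% in sacral libraries, with M5 the highest at both levels.

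Over the 20 libraries the levels of Hcn3 and Hcn4 ran closely together (Pearson's r = 0.96), and Kcnq3 followed both with r = 0.88. Kcnq5 was less like Kcnq3 (r = 0.51), although they are of one family, than like Hcn3 (r = 0.66) or Hcn4 (r = 0.67). Hcn2 was least like Kcnq5 (r = 0.33). These are descriptions of libraries that share donors and the spread in mt rRNA.

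Among all genes tested, the 3 whose levels were most like Hcn3 over the 20 libraries were Gcnt2, a glycan-branching enzyme, Spock1, an extracellular matrix proteoglycan, and Atp2b2, a plasma membrane calcium pump, with r of 0.98 each. For Hcn4 they were Pcdha11, a clustered protocadherin, Gm12834 and St8sia3, a sialyltransferase, with r of 0.97 each. For Kcnq3 they were Ctnna2, the neuronal alpha-catenin, Syt9, a synaptotagmin of vesicle release, and Gna14, a G protein alpha subunit of the Gq class, with r of 0.96 each. The genes most like Kcnq5 were Dock5, a Rac activator (r = 0.91), Uggt1, a folding sensor of the endoplasmic reticulum (r = 0.90), and Prkcd, protein kinase C delta (r = 0.89). For Hcn2, with its few reads, they were ENSMUSG00000093425 and the homeobox gene Shox2 (r = 0.84 each) and Vash1 (r = 0.79). None of these 15 genes was called between the levels by limma, with adjusted p-values from 0.16 to 0.93. Of all genes tested, 6.73% were called. The 15 genes were picked for following the channel genes over the same 20 libraries, and no channel gene passed between the levels. The lack of calls among them is therefore not a separate result.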

How the data were processed

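RNA from lumbar and sacral DRG of 10 embryos was amplified to cDNA, tagmented and sequenced by the authors. Per the study's methods and the submitters' processing notes, the authors aligned reads to mm9 with Subread, counted them per gene with featureCounts and scaled them with edgeR and limma. The authors deposited log2 RPKM values. Groups, sexes and donors came from the labels.

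Reads were recovered from the log2 RPKM steps with GENCODE M1 exon lengths: 98.2% to 98.4% of values per library fell within 0.05 of a whole read. Blanks were set to 0.5 reads. No pseudocount was added. Depth was the sum of recovered reads. The libraries carry no molecular identifiers.

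Tests used limma 3.58.1 (R 4.3.3, statmod 1.5.0) on 14529 genes whose mean reached 1 RPKM in at least 1 of 4 groups, with group means, donor as a block by duplicateCorrelation (consensus correlation 0.342), eBayes with a mean-variance trend, and Benjamini-Hochberg adjustment at 0.05. The samples were paired because both libraries of a donor came from 1 embryo. Their deviations from the group means correlated by between -0.17 and 0.68. Donors are separate embryos. Shared litters are not given in the sources used here. Hcn2, ratios and order used exact sign-flip permutation tests over 10 donors, and correlations 100000 permutations (SciPy 1.17.1). Intervals are 95%. Scripts were tested on simulated data.

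The 5 genes and the lists were chosen with earlier results of these data known. Named besides them are the 3 genes most correlated with each, list genes past the threshold, and markers. Other members of both families are counted and not named. Alternatives covered voom on recovered reads, the donor term, filters, pseudocounts, scalings, an mt rRNA covariate, sample weights and leaving out each donor. The level relative to neuronal markers was added after seeing the data. Some sequences and a marker are not reported here.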

Additional observations from a re-analysis of the deposited data

How the results depend on the processing

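The level differences of Hcn2, Hcn3, Hcn4, Kcnq3 and Kcnq5 kept their sign under 17 alternatives for Hcn2 and 21 for each of the others. Relative to neuronal markers, a scale added later that shifts all genes alike by the difference of the marker mean, Hcn3, Hcn4 and Kcnq3 were at 0.18, 0.21 and 0.17. The values ran from -0.81 to -0.14 for Hcn2, -0.44 to -0.22 for Hcn3, -0.38 to -0.17 for Hcn4, -0.46 to -0.17 for Kcnq3 and 0.02 to 0.24 for Kcnq5. Adjusted p-values from limma ran from 0.018 to 0.62, 0.14 to 0.76, 0.082 to 0.64 and 0.26 to 0.89 for Hcn3, Hcn4, Kcnq3 and Kcnq5. With sample weights Hcn3 passed at -0.44, and in females at -0.61 (limma, adjusted p = 0.029). The cause was not tested.

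The number of genes called between the levels, 978, was 3460 with sample weights, 507 with no filter on low values and 154 with no replicate block. With the replicate block as a fixed donor term it was 792. Leaving out 1 donor gave 401 to 1594 genes: 600 without M1, 487 without M5, 562 without F3, 511 without F7, 1594 without F8 and 401 without F10. The paired and unpaired fits changed no call of the 5 genes. Without the pairing the Kcnq3 to Kcnq5 ratio still changed by -0.46 (exact permutation test, adjusted p = 0.079). Leaving out 1 donor gave -0.58 to -0.30 for this ratio, which passed at -0.58 without F8, and -0.086 to 0.025 for Hcn3 to Hcn4, which was above 0 only without M1.

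Of 412 alternatives for differences within a sex, between the sexes and in the interaction, 397 kept sign and side of the threshold and 14 turned sign, none of them called. Hcn3 between the sexes in lumbar ganglia was 0.062 without F7 and 0.021 without F8, within a range over left-out donors of -0.36 to 0.062. Hcn4 in males was 0.025 with voom, 0.017 without M5 and 0.032 without M8 (-0.19 to 0.032). Kcnq5 between the sexes in lumbar ganglia was 0.013 with voom, 0.022 with scaling without mt rRNA, 0.027 without M3, 0.062 without M8, 0.040 without F7 and 0.11 without F8 (-0.22 to 0.11). Kcnq5 in females was -0.086 with sample weights. The interaction was 0.018 for Kcnq3 without F7 (-0.56 to 0.018) and 0.042 for Kcnq5 without F9 (-0.21 to 0.042). Hcn2 rests on 6 to 92 reads per library, and the part of depth in its spread between donors was not tested.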

Other observations

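The mean log2 RPKM of the 10 pan-neuronal markers differed between the levels by -0.46 ± 0.42 (SD, n = 10) and was lower at the sacral level in 9 donors. The estimates of the single markers ran from -1.14 for Nefm to -0.03 for Elavl3, so this mean depends on the markers chosen. Each channel gene was also set against this mean, a scale chosen after the data were seen and not tested. It shifts every gene by the same amount on average, so it leaves their order as it was and turns the sign of any gene whose difference lies between that of the markers and 0. The median difference over all genes tested was -0.05 before this shift, above the marker mean. The median gene thus also lies above 0 on this scale. Before the shift Kcnq5 lay above that median and the other channel genes below it. On this scale Kcnq5 was higher in the sacral library in 10 of 10 donors, by 0.63 ± 0.46. Hcn3 was higher in 8 of 10 by 0.18 ± 0.28, Hcn4 in 7 of 10 by 0.21 ± 0.30 and Kcnq3 in 6 of 10 by 0.17 ± 0.32. Hcn2 was higher in 5 and lower in 5 donors, with a mean of -0.16 ± 1.03.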
